A study of Homo sapiens with 4 samples.

Results

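Kruppel-like factors (KLF) are transcription factors that share a run of zinc fingers at the carboxyl end, with which they bind GC-rich and CACCC-type elements in promoters and enhancers. Their amino-terminal parts differ and recruit either activating or repressing partners, so that members can act in opposite directions on the same element. Several are immediate-early genes whose short-lived transcripts follow serum, shear stress, TGF-beta or glucocorticoid. In liver cancer cells they are known chiefly as regulators of the cell cycle and of differentiation. The genes described here are the 10 members KLF2, KLF3, KLF4, KLF5, KLF6, KLF7, KLF9, KLF10, KLF11 and KLF13. They were given as a list of symbols and matched to Ensembl identifiers, and all 10 had a row among the 20286 genes of the count files.

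RNA was sequenced from HLE, an established cell line from a human hepatocellular carcinoma, grown in medium with fetal bovine serum. One group of 2 libraries came from cells with stable expression of an empty vector. The other 2 came from cells with stable expression of CYR61 (current symbol CCN1), a secreted matrix-associated protein. The series description calls the replicates independent cultures of the whole population of each stable line, so p-values here measure the spread between cultures and not between separately made lines.

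The libraries held between 16186988 and 21588822 estimated counts. CCN1 checked the labels: its level in CPM (counts scaled to a common library size), introduced and endogenous copies together, was 222 and 218 with the vector and 8091 and 8620 with CYR61. Among hepatocyte markers, ALB, APOB and TTR had 0 counts in the 4 libraries and AFP at most 1, while HNF4A had between 57 and 109. Keratin genes KRT8 and KRT18 and the mesenchymal gene VIM were abundant, with vector means of 2388, 1111 and 1832 CPM, whereas the epithelial genes EPCAM and CDH1 were near the floor, with vector means of 0.839 and 1.05 CPM. Endothelial KDR and PECAM1 and leukocyte PTPRC and CD3E had at most 1 count in any library. GC content moved with part of the spread between cultures. Across 10380 genes of at least 5 CPM, which are not independent replicates, Spearman's rho with GC content was -0.75 for the difference vector 2 minus vector 1, -0.80 for the difference CYR61 1 minus CYR61 2, and -0.18 for the log2 fold change.

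KLF4 and KLF10 fell in CYR61-expressing cells, KLF4 by 42.9% and KLF10 by 44.2%, and no member rose. The other 8 members did not pass the test, and 7 of those 8 also had a fitted value below 0. Of 12698 genes tested over the whole table, 6.39% were called (edgeR quasi-likelihood test, Benjamini-Hochberg adjusted p below 0.05), 4.56% as lower and 1.83% as higher. Lower calls made up 71.4% of the 811, and 40% of 3938 with the per-library trend on GC content removed. The members' median log2 fold change was -0.32, beside -0.006 over all tested genes. The log2 fold change was below 0 for 9 of the 10, beside 50.8% of all genes. Both CYR61 libraries lay below both vector libraries for 7 members, beside 27.7% of all tested genes, and above them for 0 members, beside 23.9%. The members were chosen with earlier results of these data known, so these counts and the median are no independent evidence of direction. In bulk RNA, fewer cells expressing a gene and less RNA per cell cannot be told apart.

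The number of members called was 4 without a filter on low counts, 3 with a filter of 5 CPM in 2 libraries, and 5 with the per-library trend on GC content removed, all of them lower. Over all genes tested, 6.4%, 5.35% and 12.4% were called lower under these settings, and 10.4%, 7.15% and 31.1% in either direction. Leaving out any 1 of the 4 libraries gave 2 calls each time.

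**Figure D1:**
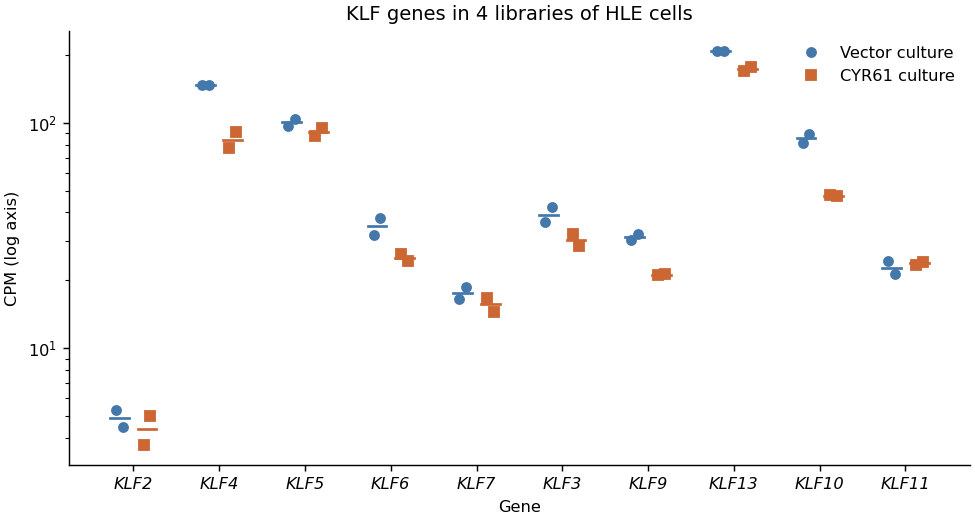
Level of each KLF gene in each library, in CPM on a log axis, with circles for vector cultures, squares for CYR61 cultures and short lines for the group means (n = 2). KLF4 and KLF10 show the widest gaps between groups, while the points of KLF2, KLF7 and KLF11 overlap between groups.

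KLF2 and KLF4 are the members induced by laminar flow in endothelium, and KLF4 is also an epithelial differentiation factor and one of the factors used to reprogram somatic cells. KLF4 (ENSG00000136826, GRCh38 chromosome 9, 107484852 to 107490482, minus strand, protein coding) was at 148 and 147 CPM with the vector against 76.9 and 91.1 CPM with CYR61. The 2 vector cultures differed little, CYR61 1 was the lowest, and the groups did not overlap. The mean fell from 147 ± 0.699 to 84 ± 10 CPM (SD, n = 2 each). The log2 fold change was -0.81 (SE 0.12, 95% interval -1.08 to -0.53, edgeR adjusted p = 0.00461). This is a decrease of 42.9%, and KLF4 was called lower under each of the 15 other settings of scaling, filter, test and libraries.

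KLF2 (ENSG00000127528, chromosome 19, 16324817 to 16327874, plus strand) was low throughout, at 5.31 and 4.48 CPM in vector and 3.72 and 5.01 CPM in CYR61 libraries. The groups overlapped, and its log2 fold change of -0.17 (95% interval -0.72 to 0.37, edgeR adjusted p = 0.724) changed sign to 0.05 without CYR61 1. It was fitted from only 80 to 100 counts a library. With the GC trend removed its log2 fold change was -0.0004.

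The bases just before the RefSeq start of KLF4 are shown with those of KLF9, the uncalled member of smallest adjusted p, because their base composition differs so widely. They are the 250 bases before the RefSeq start on GRCh38.p14, 5′ to 3′ on the minus strand, with the GC box GGGCGG and its complement CCGCCC in capitals. The KLF4 stretch is chr9:107489770-107490019 and the KLF9 stretch is chr9:70414658-70414907. The KLF4 stretch lies inside the GENCODE span given above, which begins farther upstream, so it precedes the RefSeq start but not the outermost GENCODE one.
KLF4: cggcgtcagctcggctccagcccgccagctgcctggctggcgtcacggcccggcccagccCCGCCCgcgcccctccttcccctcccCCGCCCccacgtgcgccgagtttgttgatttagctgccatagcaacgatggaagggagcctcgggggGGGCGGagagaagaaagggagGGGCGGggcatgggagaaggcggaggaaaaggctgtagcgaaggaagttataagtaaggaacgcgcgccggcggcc
KLF9: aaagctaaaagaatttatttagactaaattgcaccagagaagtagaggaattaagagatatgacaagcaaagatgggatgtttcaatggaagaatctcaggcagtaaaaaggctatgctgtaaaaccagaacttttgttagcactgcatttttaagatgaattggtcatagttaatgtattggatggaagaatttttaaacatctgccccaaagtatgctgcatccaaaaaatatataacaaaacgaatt

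The KLF4 stretch is 69.2% G and C and holds 4 GC boxes, and the KLF9 stretch is 32.4% G and C and holds none. The median over 35116 RefSeq windows of this length was 58% G and C. The search covered 13 windows from 8 of the 10 members. KLF3 had no window in the search, and member windows on chromosome 8, where KLF10 lies, were left out of it. Nothing is said here of the promoters of these genes. On either strand GGGCGG occurred in 8 of the 13 member windows, from 7 members, and in 42.6% of all windows. CACCC, the other classic KLF element, occurred in 6 of the 13, from 4 members, and in 54.7% of all windows, with no match before KLF4 or KLF9. The 8-base cyclic AMP element TGACGTCA was found before KLF11 alone among these members, and in 1.65% of all windows. The AP-1 element TGANTCA was in no member window and in 6.57% of all windows. The TEAD element GGAATG and the SMAD-type CAGACA each occurred before KLF7 alone among the 8 members searched, against 11.9% and 13.6% of all windows. CACCC and GGGCGG matches can share bases where they adjoin, and a match is no measure of binding.

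KLF5, KLF6 and KLF7 are mainly activators. KLF5 drives proliferation in basal epithelium, and KLF6 is an immediate-early gene of injured liver with growth-restraining actions. KLF5 (ENSG00000102554, chromosome 13, 73054976 to 73077542, plus strand) was at 96.5 and 104 CPM in vector and 87.3 and 95 CPM in CYR61 libraries. The groups did not overlap but lay close together, and the log2 fold change was -0.14 (95% interval -0.40 to 0.12, edgeR adjusted p = 0.529).

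KLF6 (ENSG00000067082, chromosome 10, 3775996 to 3785281, minus strand) was at 31.7 and 38 CPM in vector and 26.1 and 24.3 CPM in CYR61 libraries. The CYR61 libraries were below both vector libraries, with a log2 fold change of -0.47 (SE 0.15, 95% interval -0.81 to -0.13), and the call was missed (edgeR adjusted p = 0.0976). KLF6 was called with the GC trend removed (edgeR adjusted p = 0.0101) and without a filter (0.0471). In all it was called under 3 of the 15 other settings. With replicate number as a block and the GC trend kept, the edgeR adjusted p was 0.458.

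KLF7 (ENSG00000118263, chromosome 2, 207074137 to 207167267, minus strand), a factor of neuronal differentiation, was at 16.6 and 18.8 CPM in vector and 16.8 and 14.5 CPM in CYR61 libraries. The groups overlapped (log2 fold change -0.17, 95% interval -0.54 to 0.20, edgeR adjusted p = 0.581).

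KLF3 is a repressor that works through the corepressor CtBP. KLF3 (ENSG00000109787, chromosome 4, 38664196 to 38701042, plus strand) was at 36.2 and 42.1 CPM in vector and 32.2 and 28.3 CPM in CYR61 libraries. The groups did not overlap, with a log2 fold change of -0.37 (SE 0.15, 95% interval -0.70 to -0.04) that was not called (edgeR adjusted p = 0.166). It was called with the GC trend removed (-0.36, edgeR adjusted p = 0.00746), and in all under 2 of the 15 other settings. With replicate number as a block and the GC trend kept, the edgeR adjusted p was 0.606. KLF3 shares 266 exonic bases with the opposite-strand gene KLF3-AS1, and without known strandedness their reads cannot be told apart.

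KLF9 and KLF13 are closely related factors that recruit the SIN3A corepressor, and KLF9 is induced by glucocorticoid and thyroid hormone. KLF9 (ENSG00000119138, chromosome 9, 70384597 to 70414624, minus strand) was at 30.2 and 32 CPM in vector and 21.1 and 21.4 CPM in CYR61 libraries. Cultures within each group lay close together and the groups were well apart, with a log2 fold change of -0.55 (SE 0.14, 95% interval -0.87 to -0.23). The adjusted p of 0.0508 by edgeR lay just outside the threshold. KLF9 was called with the GC trend removed (edgeR adjusted p = 0.00174), without a filter (0.0174) and with the filter of 5 CPM (0.046), and over the 15 other settings its log2 fold change lay between -0.59 and -0.50, with adjusted p from 0.00174 to 0.324.

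KLF13 (ENSG00000169926, chromosome 15, 31326855 to 31435665, plus strand), an activator of the chemokine gene CCL5 in T cells, had the most reads of the members. It was at 207 and 208 CPM in vector and 169 and 176 CPM in CYR61 libraries, without overlap. Its log2 fold change of -0.27 (SE 0.11, 95% interval -0.51 to -0.03) was not called (edgeR adjusted p = 0.174) and was not called under any of the 15 other settings. With the GC trend removed, the value was -0.15.

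KLF10 and KLF11 are the TGF-beta-inducible members, early response genes whose products repress transcription through SIN3A and restrain growth. KLF10 (ENSG00000155090, chromosome 8, 102648779 to 102655902, minus strand) was at 81.3 and 88.9 CPM in vector and 47.8 and 47.1 CPM in CYR61 libraries. The groups did not overlap, and the CYR61 cultures were nearly equal. The mean fell from 85.1 ± 5.34 to 47.4 ± 0.468 CPM (SD, n = 2 each), with a log2 fold change of -0.84 (SE 0.12, 95% interval -1.12 to -0.57, edgeR adjusted p = 0.00347). This is a decrease of 44.2%, and KLF10 was called under each of the 15 other settings.

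KLF11 (ENSG00000172059, chromosome 2, 10042849 to 10054836, plus strand) was at 24.3 and 21.2 CPM in vector and 23.3 and 24.2 CPM in CYR61 libraries. The groups overlapped and the log2 fold change was 0.06 (95% interval -0.28 to 0.40, edgeR adjusted p = 0.854), turning to -0.03 without vector 2. Its exons overlap the opposite-strand gene AC104794.4 over 416 bases. The intervals of KLF10 and KLF11 did not overlap, but the difference between the genes was not tested.

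**Figure D2:**
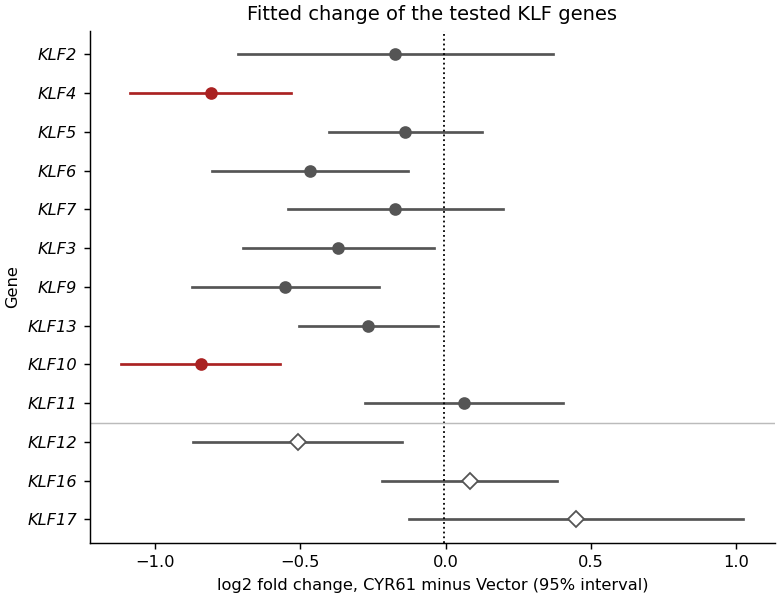
Fitted log2 fold change (CYR61 minus vector) with its 95% interval for the 10 members and, below the grey line, the 3 other tested KLF genes as open diamonds. Red marks an edgeR adjusted p below 0.05, and the dotted line is the median of all genes at -0.006. KLF4 and KLF10 are the red ones. The intervals of KLF3, KLF6, KLF9 and KLF13, and of KLF12 below the grey line, lie below 0 although these were not called after adjustment.

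Levels can be compared between members only per length, here as CPM per kilobase of the joined GENCODE exons, which need not be the isoforms in these cells. In vector cells the order was KLF4 (mean 40.2), KLF5 (25.8), KLF13 (22), KLF10 (21.3), KLF3 (6.22), KLF9 (6.01), KLF6 (5.67), KLF11 (4.96), KLF2 (2.43) and KLF7 (1.91). Between neighbours, KLF13 and KLF10 overlapped between cultures, as did KLF3 with KLF9, KLF9 with KLF6, and KLF6 with KLF11. In CYR61 cells KLF5 (23.4) and KLF4 (23) overlapped at the top, followed by KLF13 (18.3), KLF10 (11.9), KLF11 (5.17), KLF3 (4.81), KLF9 (4.1), KLF6 (4.1), KLF2 (2.16) and KLF7 (1.69). There KLF11 overlapped KLF3, and KLF9 overlapped KLF6.

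Summed over the 10 members, the level per kilobase was 134 and 139 with the vector against 95.5 and 102 with CYR61. KLF4 made up 30.1% and 28.8% of that sum with the vector against 22% and 24.5% with CYR61. KLF5 made up 18.5% and 19.2% with the vector against 23.5% and 24% with CYR61. Its own level per kilobase did not rise, at 24.8 and 26.7 with the vector against 22.4 and 24.4 with CYR61. The ratio of KLF4 to KLF5, factors with opposed actions on proliferation in gut epithelium, was 1.63 and 1.5 with the vector against 0.937 and 1.02 with CYR61. The share of KLF10 was 15.2% and 16% with the vector against 12.5% and 11.6% with CYR61.

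**Figure D3:**
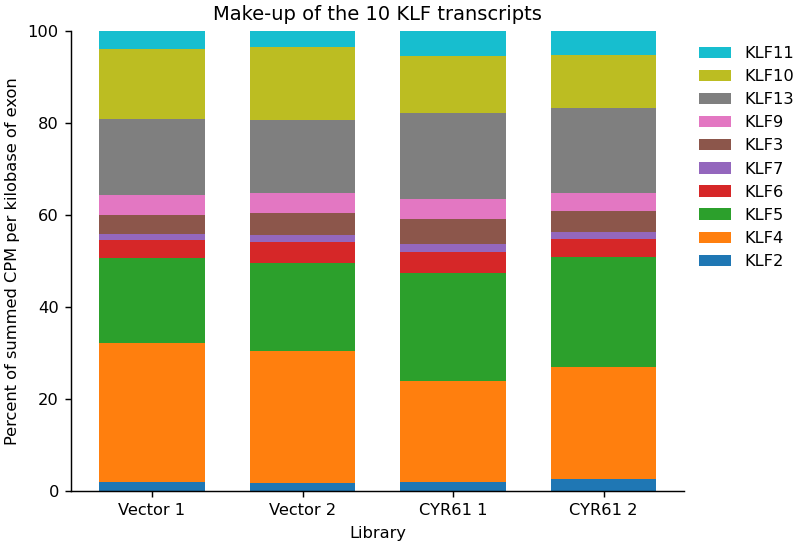
Share of each member in the summed CPM per kilobase of exon of the 10 genes, in percent, as 1 stacked bar for each library. The KLF4 segment is smaller and the KLF5 segment larger in both CYR61 libraries, where the sum itself was lower.

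The members differed in how far replicate cultures lay apart. Vector 2 minus vector 1 ran from -0.24 on the log2 scale for KLF2 to 0.26 for KLF6, and CYR61 1 minus CYR61 2 from -0.42 for KLF2 to 0.20 for KLF7. The GC content of their transcripts ran from 44.3% in KLF5 to 65.9% in KLF2. Over the 10 members, which share the libraries, Pearson's r with GC content was -0.68 for the difference vector 2 minus vector 1 and 0.06 for the log2 fold change between groups. With the GC trend removed, 5 members were called lower, KLF3, KLF4, KLF6, KLF9 and KLF10, beside 12.4% of all genes.

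**Figure D4:**
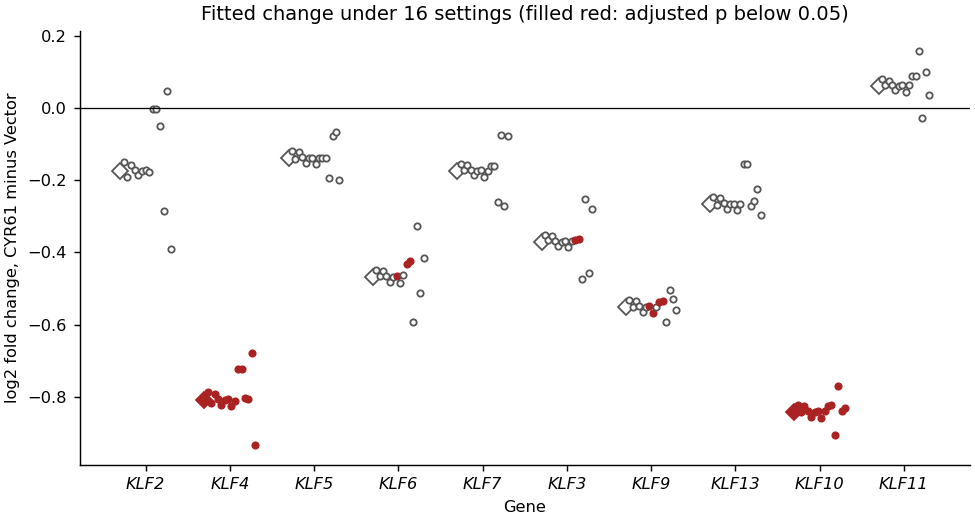
Log2 fold change (CYR61 minus vector) of each member in the chosen fit (diamond) and under the 15 other settings (circles, 14 for KLF2), filled red where the adjusted p was below 0.05. KLF4 and KLF10 are red under all of them, and only KLF2 and KLF11 have points on both sides of 0.

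The 8 further KLF genes gave 3 that could be tested, and 0 were called by edgeR. Of these 3, 1 had an unadjusted p below 0.05 (edgeR), as did 2914 of all 12698 tested genes. DESeq2 and limma-voom also called 0. KLF12, a CtBP-binding repressor related to KLF3, was at 21.7 and 25.8 CPM in vector and 17.1 and 16.3 CPM in CYR61 libraries (log2 fold change -0.51, edgeR adjusted p = 0.0932). It is the 1 further gene called with the GC trend removed or without a filter, where 31.1% and 10.4% of all genes were called. KLF16 had a log2 fold change of 0.08 and KLF17 of 0.45, neither called. KLF1, KLF8, KLF14, KLF15 and KLF18 had at most 5 counts in any library.

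The SP genes encode the sister group with the same zinc fingers and GC box preference. Of 9 listed, 7 were tested and 0 called by edgeR, with a median log2 fold change of -0.14. Of these 7, 1 had an unadjusted p below 0.05 (edgeR), beside 2914 of all 12698 tested genes. DESeq2 and limma-voom also called 0. SP1, the ubiquitous activator of GC box promoters, was at 186 and 192 CPM in vector and 156 and 159 CPM in CYR61 libraries (log2 fold change -0.26, edgeR adjusted p = 0.187).

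Genes that act on KLF proteins or promoters were not called. The counts at an unadjusted p below 0.05 stand beside 2914 of all 12698 tested genes (edgeR). Among 10 cofactor genes, 0 were called (edgeR, 1 at an unadjusted p below 0.05), with a median of -0.03. The acetyltransferase gene EP300 had the smallest p, at 85.6 and 86.1 CPM in vector and 99.5 and 106 CPM in CYR61 libraries (log2 fold change 0.26, edgeR adjusted p = 0.212). Among 7 ubiquitin ligase genes, 0 were called (edgeR, 2 at an unadjusted p below 0.05), with BTRC lowest in p (log2 fold change -0.33, edgeR adjusted p = 0.153). The MEK5, ERK5 and MEF2 genes, which induce KLF2 and KLF4 in endothelium, gave 0 calls among 5 tested (edgeR, 2 at an unadjusted p below 0.05). MAP2K5 was lowest in p (-0.39, edgeR adjusted p = 0.166). The median of the 5 was -0.25, and all 5 lay below 0, beside 50.8% of all genes. DESeq2 and limma-voom called 0 genes in each of these 3 lists.

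Among 13 tested genes described as direct KLF targets, 1 fell and 0 rose, or 7.69%, close to the 6.39% of all genes, and their median log2 fold change was -0.10. The gene was CDKN1A, encoding the cell cycle inhibitor p21, a target of KLF4 and KLF6. It was at 86.4 and 82.4 CPM in vector and 26.1 and 25.9 CPM in CYR61 libraries, with a fitted log2 fold change of -1.70 (SE 0.13) and an edgeR adjusted p = 0.000103. CDKN1A is also induced by p53 and other factors, and whether its level followed any KLF protein was not tested. The other 12 were not called, such as CCND1 (0.09), BIRC5 (0.22), SMAD7 (-0.21), TGFBR1 (-0.10) and S1PR1 (-0.59, edgeR adjusted p = 0.145). Of the 13, 8 lay below 0 and 5 above. By edgeR, 3 of the 13 had an unadjusted p below 0.05, beside 2914 of all 12698 tested genes. CCL5, the target of KLF13, had a log2 fold change of -0.90 (edgeR adjusted p = 0.0673).

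Several early response genes that share inducers with KLF members fell. Of 8 tested serum response genes, 5 fell and 0 rose (62.5%, beside 6.39% of all genes called), with a median log2 fold change of -0.75. JUNB was at 210 and 193 CPM in vector and 91.3 and 115 CPM in CYR61 libraries (log2 fold change -0.97, edgeR adjusted p = 0.00264). JUN (-0.94), EGR1 (-1.44) and ATF3 (-0.82) fell, as did FOS (-0.68), which was named after its values were seen. The FOS call was lost when vector 1 (edgeR adjusted p = 0.221) or CYR61 1 (0.134) was left out, and under the replicate block (0.12). FOSB (-0.35), IER2 (-0.39) and SRF (0.28), the gene of the serum response factor itself, were not called. These are the genes of a list whose lower values were known from earlier results of these data, so the count is no independent evidence of direction.

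Of 6 tested glucocorticoid response genes, the group induced together with KLF9, 3 fell and 0 rose. This is 50%, beside 6.39% of all genes called, and the median was -0.47. This list too was chosen with earlier results of these data known, so its count is no independent evidence of direction. TSC22D3, encoding the glucocorticoid-induced leucine zipper protein, was at 71.4 and 64.4 CPM in vector and 28.1 and 33.6 CPM in CYR61 libraries (log2 fold change -1.14, edgeR adjusted p = 0.0016). The phosphatase gene DUSP1 (-1.12) and the clock gene PER1 (-0.56) were the others, and both are early response genes as well. The PER1 call was lost when vector 1 (edgeR adjusted p = 0.139), vector 2 (0.071) or CYR61 1 (0.178) was left out, and under the replicate block (0.184). The receptor gene NR3C1 (-0.18), FKBP5 (0.26) and SGK1 (-0.38) were not called.

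**Figure D5:**
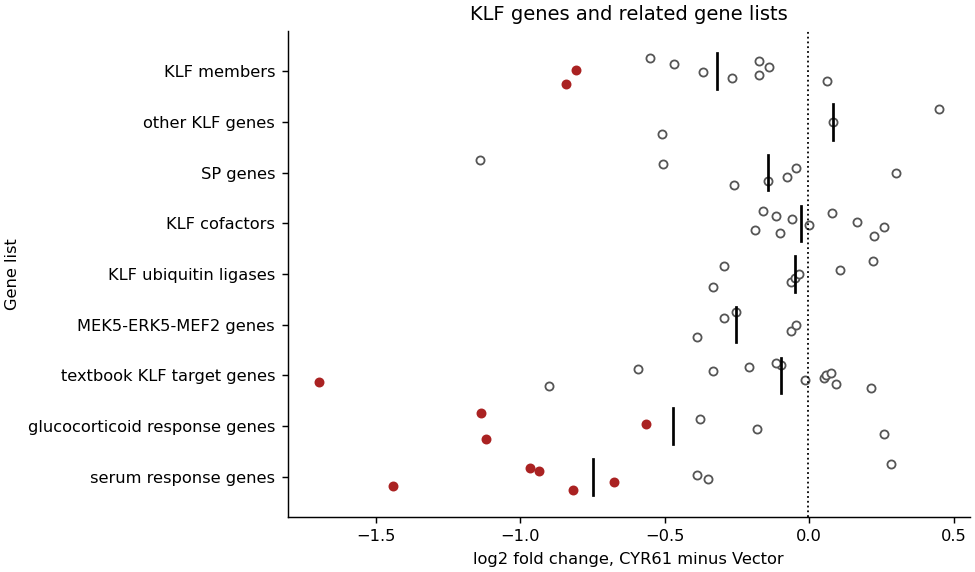
Log2 fold change (CYR61 minus vector) of each tested gene in the KLF list and 8 related lists, with filled red points for an edgeR adjusted p below 0.05, black bars for list medians and a dotted line for the median of all genes at -0.006. Red points lie in the KLF, target, glucocorticoid and serum response lists, and each of them is below 0.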

How the data were processed

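Gene expression was measured by RNA sequencing in 4 libraries. The authors deposited estimated counts per Ensembl gene, of which 11.2% to 12% per library were not whole numbers. The submitters' processing notes name build hg38 with TopHat2 2.1.1, Cufflinks 2.2.1 and Cuffdiff 1.3.0, without their roles. The counting program, the annotation and the strandedness were not given in the sources used here.

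Counts were rounded. Genes were kept by filterByExpr with default settings (12698 of 20286), scaled by TMM and tested on group alone with edgeR 4.0.16 (glmQLFit, glmQLFTest, R 4.3.3), with Benjamini-Hochberg adjustment over all tested genes and a threshold of 0.05. The SE of a log2 fold change is its absolute size over the square root of F, and intervals use the fit's total degrees of freedom. Positions, exon lengths and GC content came from GENCODE release 29 on GRCh38. Over 50-base words, 4 members shared sequence with other genes, KLF11 at 8.09% of its words, KLF3 at 3.99%, KLF13 at 0.341% and KLF7 at 0.17%.

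The members and gene lists were chosen with earlier results of these data known. Named genes were all members and, per list, up to 4 called genes of smallest adjusted p, or the gene of smallest p where none was called. Further genes, and the KLF9 promoter, were picked with their values in view. The alternatives were DESeq2 1.42.0, limma-voom (limma 3.58.1), RLE, upper quartile and library size scaling, CYR61 left out of library sizes, no filter, 5 CPM in 2 libraries, the replicate block, removal of the GC trend (natural spline, 5 degrees of freedom) with and without the block, and each library left out. A block with crossed numbers was added after the data were seen. The fits were tested on simulated counts of 12698 genes without a GC trend. There edgeR recovered 46% of 1.5-fold changes and 84% of 2-fold changes, with 16 false calls. Protein sequences were not used here.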

Additional observations from a re-analysis of the deposited data

How the results depend on the processing

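KLF4 and KLF10 were called lower under each of the 15 other settings, with log2 fold changes from -0.93 to -0.68 for KLF4 and from -0.91 to -0.77 for KLF10. KLF2 could not be tested with the filter of 5 CPM. Without 1 library, its value ran from -0.39 to 0.049 (without CYR61 1) and that of KLF11 from -0.026 (without vector 2) to 0.16; the cause of either change of sign was not tested. With the GC trend removed, KLF3 (-0.36, 0.00746), KLF6 (-0.43, 0.0101) and KLF9 (-0.54, 0.00174) were called (edgeR adjusted p in parentheses). With the GC trend removed and the replicate block, the values were -0.36, -0.42 and -0.53. Without a filter, KLF6 (-0.47) and KLF9 (-0.55) were called, and with 5 CPM KLF9 (-0.57). Counts of called members were 4 without a filter and 5 with the GC trend removed, with or without the replicate block, beside 2.

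Over all genes, calls numbered 811 (28.6% higher), 1677 without a filter (38.6% higher), 3938 with the GC trend removed (60% higher), and 481 to 1331 without 1 library. With the replicate block 391 genes were called, and 3088 with the GC trend removed as well. Deviations of same-numbered libraries from their group means correlated at -0.38 over the tested genes. The labels give no pairing, and how the cultures were paired was not tested. With the numbers crossed as a block, 5624 of 12698 genes were called, 2748 higher and 2876 lower. Under that block 7 of 10 members were called, all lower. It was chosen after the data were seen, so its counts are no independent evidence. In the replicate block the calls of KLF4 (-0.81) and KLF10 (-0.84) were kept, and no other member was called.

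With the GC trend removed, where 31.1% of all genes were called, the lists gave 1 lower of 3 other KLF genes (also 1 without a filter), 1 lower of 7 SP genes, 2 higher of 10 cofactor genes, 2 lower of 7 ubiquitin ligase genes, 2 lower of 5 MEK5-ERK5-MEF2 genes, 1 higher and 3 lower (4) of 13 KLF targets and 5 lower of 6 glucocorticoid response genes. With the replicate block as well, where 24.4% of all genes were called, the counts were 1, 0, 2, 2, 2, 2 and 4 in that order. Serum response genes gave 1 higher and 6 lower of 8 with the GC trend removed. They gave 1 higher and 5 lower with the replicate block as well. Targets also gave 2 without a filter, and 1 to 2 without 1 library. Counts of at most 100 per library limit KLF2.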
